A study of Mus musculus with 8 samples.

Results

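The BCL2 family decides, at the outer mitochondrial membrane, whether a cell releases cytochrome c and dies by apoptosis. The genes described here are 10 members listed by their function, and the list was made with earlier results of these data known. The proteins of *Bcl2*, *Bcl2l1* and *Mcl1* hold apoptosis back, and those of *Bax* and *Bak1* form the membrane pore. *Bid*, *Bbc3* and *Bcl2l11* are the BH3-only genes, whose proteins start the process. The proteins of *Bnip3* and *Bnip3l* mark mitochondria for removal. All probes whose RefSeq accession belongs to 1 of these 10 genes were taken, which gave 17 probes, with 1 probe for each of 6 genes and more than 1 for the other 4. The array held probes for 20660 named genes, of which 15088 were tested, and 9 of the 10 BCL2 family genes were among those tested.

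Adult male Muta Mouse (9 weeks old), a transgenic strain used for mutation assays, received benzo[*a*]pyrene (BaP), a carcinogen of combustion smoke, in olive oil by oral gavage. The daily dose was 70 mg/kg bw on each of 3 days, and control mice received the oil alone. The hippocampus was collected 24 hr after the last dose. Total RNA of 4 control and 4 BaP-exposed mice, out of 5 animals in each group, carried Cy5, and a universal mouse reference RNA on the same array carried Cy3, with 1 array a mouse. Dyes were not swapped, so each value is a log2 ratio of hippocampus over reference, and a difference between groups is the difference of these log2 ratios. In control mice the mean of the brightest probe was below the reference for 7 of the 9 tested genes and above it for 2, *Bcl2l1* and *Bnip3l*. The arrays lay on 1 slide in 2 rows of 4, with 2 mice of each group in each row. The comparison asks whether BaP shifted the balance of survival and death genes in brain tissue.

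The labels of 4 arrays disagree. For BaP-exposed mice 3 and 4 and control mice 3 and 4, which fill row 2 of the slide, the title and the source name give opposite groups. Titles were used, since sample numbers 27 to 30 carry control titles and 71 to 75 BaP titles. The 4 arrays of row 1 have no conflict, and values from each row alone are given for genes whose groups did not overlap and for *Mcl1* and the dimmer *Bcl2l1* probe. In limma 0 probes of the whole array passed the test in either row alone, with 2265 in row 1 and 2001 in row 2 at an unadjusted p of 0.05. The median Cy5 signal of an array was 108 to 174 over a background of 67 to 71, and 56.6% to 67.4% of spots were well above background. Outlier spots numbered 1483 on the array of control mouse 1 and 310 to 371 on the others. The 9 neuronal marker genes averaged a log2 ratio of 4.38 to 4.62 over all mice, which fits the labeled tissue. Bulk tissue was measured, so fewer cells of a type and less RNA per cell cannot be told apart.

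As background, the anti-apoptotic proteins bind and restrain BAX and BAK, and the BH3-only proteins release that restraint or activate the pore formers directly. *Bbc3*, which encodes PUMA, and *Bax* are known transcriptional targets of p53, the DNA damage response factor. *Bnip3* and *Bnip3l* are known targets of hypoxia-inducible factor 1 (HIF1). BaP binds the aryl hydrocarbon receptor (AHR), whose dimer with ARNT recognizes a short core in DNA, and *Bax* is a known AHR target in oocytes.

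The promoters of 4 genes are shown because they carry these cores or, for *Bid*, hold neither and belong to the only member whose brightest probe separated the groups. They are 250 bases upstream of the annotated start, 5′ to 3′, from RefSeq on GRCm38.p6, with the AHR core GCGTG and the HIF core ACGTG in capitals on either strand. In CACGTG the HIF core reads on both strands and was counted as 1 site.
Bbc3, chr7:16309333-16309582, + strand: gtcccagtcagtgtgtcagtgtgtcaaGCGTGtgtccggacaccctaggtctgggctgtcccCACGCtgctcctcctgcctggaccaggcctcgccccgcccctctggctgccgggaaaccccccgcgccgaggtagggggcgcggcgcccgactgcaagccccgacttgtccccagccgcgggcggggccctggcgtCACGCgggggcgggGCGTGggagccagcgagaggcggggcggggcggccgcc
Bnip3, chr7:138909507-138909756, - strand: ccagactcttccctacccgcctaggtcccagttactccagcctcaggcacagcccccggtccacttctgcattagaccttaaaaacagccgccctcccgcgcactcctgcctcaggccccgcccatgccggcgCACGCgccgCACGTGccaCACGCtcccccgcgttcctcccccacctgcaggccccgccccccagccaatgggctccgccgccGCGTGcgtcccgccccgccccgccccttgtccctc
Bax, chr7:45466899-45467148, - strand: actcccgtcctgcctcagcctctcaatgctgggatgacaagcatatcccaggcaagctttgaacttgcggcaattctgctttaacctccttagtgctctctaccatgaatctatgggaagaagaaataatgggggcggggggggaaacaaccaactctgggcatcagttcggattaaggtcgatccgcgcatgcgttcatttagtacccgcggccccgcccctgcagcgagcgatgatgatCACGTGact
Bid, chr6:120916825-120917074, - strand: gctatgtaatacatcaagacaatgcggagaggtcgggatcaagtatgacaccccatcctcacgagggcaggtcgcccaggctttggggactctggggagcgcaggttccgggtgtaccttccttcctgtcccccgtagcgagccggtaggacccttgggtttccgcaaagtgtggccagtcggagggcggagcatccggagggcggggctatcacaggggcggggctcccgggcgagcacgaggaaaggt

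The *Bbc3* promoter shown, the first of its 3 entries, held 4 AHR cores and no HIF core. *Bnip3* held 3 AHR cores and 1 CACGTG. *Bax* held the CACGTG and no AHR core, and *Bid* held neither. The table had 14 entries for 9 of the 10 genes, all but *Bnip3l*. The AHR core lay in 6 entries of 4 genes, *Bcl2l11*, *Bcl2l1*, *Bbc3* and *Bnip3*, and it lies in 28.2% of all 32851 promoters of this length. The HIF core lay in 3 entries of 3 genes, *Bbc3*, *Bax* and *Bnip3*, and in 16.6% of all promoters. Only these letters were counted, so a core written with other letters was not. A match of these letters is a description of the sequence and not a measured binding site.

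No BCL2 family gene passed the test in the hippocampus after BaP. The test, applied to 16 probes, asked for an adjusted p of 0.05 in limma and a fold change of 1.5, and 0 of the 16 met it, while 3 of all 32598 tested probes did (0.0092%). Read by the brightest probe of each gene, 8 genes were slightly higher in BaP-exposed mice and 1, *Bid*, was lower, with a median log2 difference of 0.06 against -0.00 over all tested genes. The adjusted p of the 16 probes lay between 0.498 and 0.966. For all 9 genes the 95% confidence interval of the brightest probe lay within a 1.5-fold change in either direction, and so did the interval of 15 of the 16 probes. When the arrays were centred on their median without loess, 2 of the 9 intervals lay within that range. That centring moved the median of all probes to 0.17 and the 8 genes other than *Bid* to between 0.25 (*Bcl2*) and 0.46 (*Mcl1*), which is 0.08 to 0.29 relative to that median, and 0 of them passed the test.

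**Figure D1:**
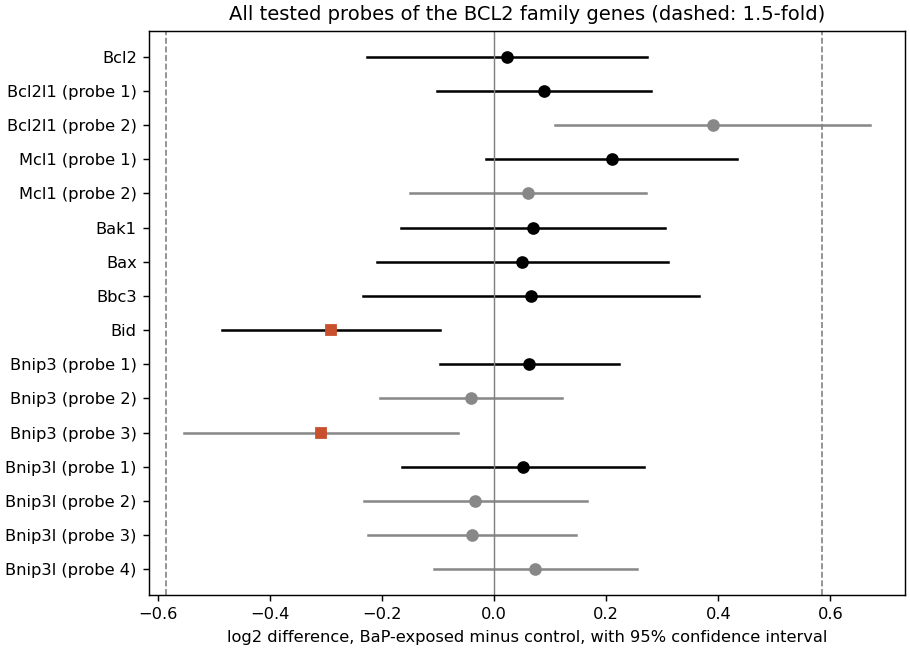
Log2 difference, BaP-exposed minus control, of each tested BCL2 family probe with its 95% confidence interval from limma; probe 1 is the brightest of a gene (black), further probes are gray, and red squares mark probes whose groups did not overlap. All intervals but that of *Bcl2l1* probe 2 lie between the dashed lines at 1.5-fold.

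At an unadjusted p of 0.05, without correction for the number of probes, 3 of the 16 probes passed, 1 each of *Bid*, *Bcl2l1* and *Bnip3*. That is 18.8% of the family's probes, where 8.76% of all tested probes passed. By brightest probe 1 of 9 genes passed, against 9.44% of all tested genes. Groups did not overlap for 2 of the 16 probes, those of *Bid* and *Bnip3*, against 5.06% of all tested probes, and for 1 of the 9 brightest probes, against 5.29% of genes. With 16 probes, several of them on the same transcript, these counts are too small to be read as different from the background.

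The pro-survival genes come first. *Bcl2*, the founding member of the family, had log2 ratios of -0.13, -0.37, 0.05 and 0.00 in control mice and -0.20, 0.04, -0.22 and 0.04 in BaP-exposed mice. The groups overlapped fully, and the difference was 0.02 (standard error 0.11, adjusted p = 0.966 from limma). The *Bcl2* probe carries NM_177410, 1 of the 2 curated RefSeq transcripts of the gene, and says nothing of the other on its own.

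*Bcl2l1* encodes BCL-XL, a survival protein of mature neurons. Its brightest probe read 1.82, 1.54, 1.75 and 1.59 in control mice, a mean ratio 3.19-fold above the reference, and 1.76, 1.78, 1.81 and 1.70 in BaP-exposed mice. The control mice spanned the whole range of the exposed mice, and the difference was 0.09 (standard error 0.09, adjusted p = 0.776 from limma).

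The dimmer *Bcl2l1* probe gave another picture. It read 0.55, 0.79, 1.11 and 0.81 in control mice and 1.16, 1.42, 1.05 and 1.18 in BaP-exposed mice. Exposed mice were higher apart from 1 crossing, where BaP-exposed mouse 3 fell below control mouse 3. The difference was 0.39, or 1.31-fold, with a 95% interval of 0.11 to 0.67, and it did not pass the test (adjusted p = 0.499 from limma; exact permutation p = 0.0571, 2-sided). It was 0.63 within row 1 of the slide and 0.15 within row 2, where the groups overlapped. Both probes carry the same accession, and the difference between them was not tested.

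*Mcl1* encodes a survival protein with a short life. Its brightest probe read -0.87, -1.06, -0.90 and -1.14 in control mice and -0.97, -0.72, -0.62 and -0.81 in BaP-exposed mice. BaP-exposed mice 2, 3 and 4 lay above every control mouse, and BaP-exposed mouse 1 lay among them. The difference of 0.21 had a 95% interval of -0.01 to 0.43 (adjusted p = 0.588 from limma; exact permutation p = 0.114, 2-sided). The dimmer probe read -2.87, -3.00, -2.69 and -2.91 in control mice and -2.92, -2.66, -2.88 and -2.76 in BaP-exposed mice, which overlapped at a difference of 0.06 (adjusted p = 0.872 from limma). The brightest one differed by 0.12 within row 1 and 0.30 within row 2.

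Neither pore former passed the test. *Bax* had log2 ratios of -1.03, -1.02, -1.14 and -1.48 in control mice and -0.98, -1.20, -1.24 and -1.05 in BaP-exposed mice. Control mouse 4 was the lowest of the 8, and the groups overlapped, with a difference of 0.05 (95% interval -0.21 to 0.31, adjusted p = 0.922 from limma). *Bak1*, the other pore former, read -2.15, -2.27, -2.26 and -2.04 in control mice and -2.33, -1.89, -2.08 and -2.14 in BaP-exposed mice. Exposed mice held both the lowest and the highest value, and the difference was 0.07 (standard error 0.11, adjusted p = 0.865 from limma).

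The log2 ratio of *Bax* minus that of *Bcl2* is often used to describe the balance of death and survival genes within a sample. It was -0.91, -0.65, -1.19 and -1.48 in control mice and -0.78, -1.23, -1.02 and -1.09 in BaP-exposed mice. All exposed mice lay within the span of the control mice. As each term is relative to the reference RNA, the value shows which mice stand higher, not which transcript is more abundant.

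**Figure D2:**
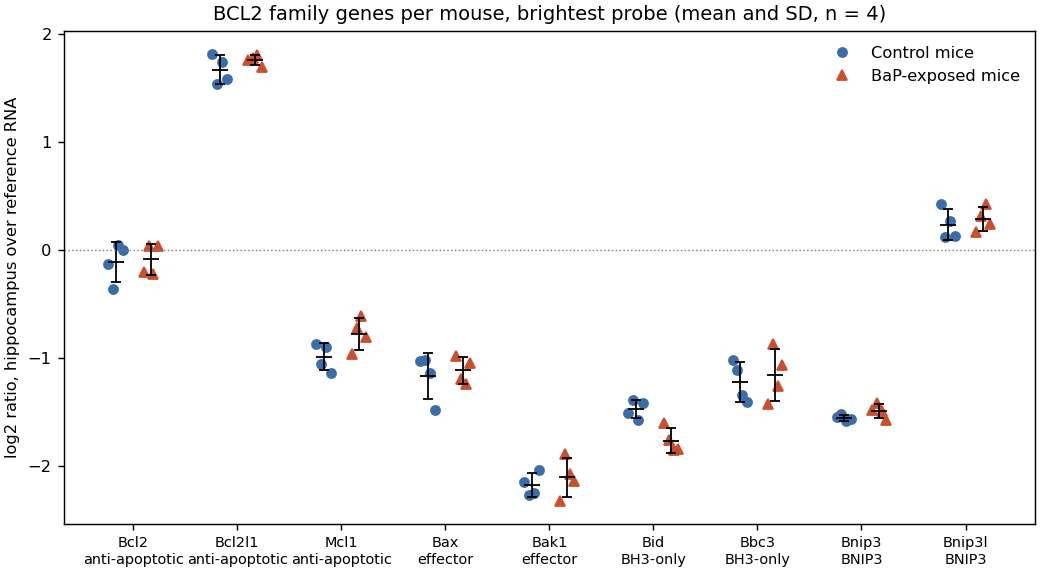
Log2 ratio of hippocampus over reference RNA (y axis) for the brightest probe of each of the 9 tested BCL2 family genes in control (circles) and BaP-exposed mice (triangles), 1 point a mouse, with the mean and SD of each group (n = 4). Groups overlap for all genes but *Bid*, for which all exposed mice lie below all control mice.

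*Bid* had the lowest difference among the brightest probes and was the only gene below 0 there. It encodes the protein that caspase-8 cleaves to carry a death receptor signal to the mitochondria. Its probe, A_52_P574653 on NM_007544, read -1.52, -1.39, -1.58 and -1.42 in control mice and -1.60, -1.76, -1.86 and -1.85 in BaP-exposed mice. Every exposed mouse lay below every control mouse, by a narrow gap between BaP-exposed mouse 1 and control mouse 3. The difference of -0.29 (95% interval -0.49 to -0.10), a ratio of 0.818, had an adjusted p of 0.498 from limma and an exact permutation p of 0.0286 (2-sided), the smallest that 4 mice against 4 allow.

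The *Bid* difference was -0.23 in row 1, where the labels do not conflict, and -0.35 in row 2. With the groups taken from the source names it was 0.06. The groups overlapped with Agilent's processed signals (-0.32) and with the Cy5 channel alone (-0.22). With median centring *Bid* was -0.02, or -0.18 relative to the median of all probes.

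*Bbc3*, the p53 target whose promoter heads the sequences above, read -1.02, -1.11, -1.35 and -1.41 in control mice and -1.43, -0.88, -1.26 and -1.06 in BaP-exposed mice. The lowest and the highest of the 8 values were both from exposed mice. The difference was 0.07 (95% interval -0.23 to 0.37, adjusted p = 0.906 from limma). *Bcl2l11* encodes BIM, a BH3-only protein of neuronal death. Its probe was well above background in Cy5 on 1 of the 8 arrays, that of control mouse 1, so no difference is given.

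*Bnip3* and *Bnip3l* encode receptors on the mitochondrial surface that recruit the autophagy machinery. The brightest *Bnip3* probe was the steadiest of the family in control mice, at -1.55, -1.53, -1.59 and -1.57, and read -1.49, -1.42, -1.49 and -1.58 in BaP-exposed mice. The groups overlapped through BaP-exposed mouse 4, and the difference was 0.06 (standard error 0.07, adjusted p = 0.816 from limma). The next probe in brightness read -1.16, -1.24, -1.30 and -1.23 in control mice and -1.21, -1.30, -1.28 and -1.30 in BaP-exposed mice. Its groups overlapped too, with a difference of -0.04 (adjusted p = 0.889 from limma).

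The dimmest *Bnip3* probe had no value for control mouse 1, whose spot was marked as an outlier. It read -1.26, -1.23 and -1.11 in the other control mice and -1.40, -1.34, -1.68 and -1.61 in BaP-exposed mice. The groups did not overlap, with a difference of -0.31 (95% interval -0.55 to -0.06, adjusted p = 0.515 from limma) and an exact permutation p of 0.0571 (2-sided), the smallest that 7 arrays allow. It was -0.11 within row 1, where control mouse 2 was the only control mouse with a value, and -0.48 within row 2. With the groups of the source names it was 0.25. The groups overlapped with Agilent's processed signals and with median centring (-0.01). The 3 *Bnip3* probes carry the same accession, NM_009760, and differ in sign.

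*Bnip3l* encodes NIX, which removes mitochondria from maturing red blood cells. Its brightest probe read 0.43, 0.12, 0.27 and 0.13 in control mice and 0.17, 0.32, 0.42 and 0.24 in BaP-exposed mice, a difference of 0.05 (standard error 0.10, adjusted p = 0.898 from limma). Its other probes differed by 0.07, -0.03 and -0.04, so that its 4 probes split in sign around 0.

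*Bnip3l* and *Bcl2l1* are both known for roles in red cell precursors, and erythroid genes differed between the groups as follows. All 7 tested genes of a list of 9 erythroid genes, chosen with earlier results of these data known, were lower in BaP-exposed mice. Groups did not overlap for 6 of them, against 5.29% of all tested genes. The test was passed by 2, *Hbb-bs* and *Alas2*, where 0.0092% of all tested probes passed it. *Hbb-bs* was -2.02 in row 1 and -1.79 in row 2, and *Alas2* was -1.05 in row 1 and -1.06 in row 2. The other 4 without overlap, at -1.02 to -0.51 in row 1 and -0.87 to -0.46 in row 2, were the globin genes *Hbb-b2*, *Hbb-bt*, *Hba-a2* and *Hba-a1*, whose near-identical sequences the probes may not tell apart. The list averaged a log2 ratio of 3.91 to 4.08 in control mice and 3.05 to 3.35 in BaP-exposed mice, with a median difference of -0.80. The brightest *Bnip3l* and *Bcl2l1* probes were not lower in exposed mice, and the part of red cells in their values was not tested.

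The means of the neuronal, astrocyte, oligodendrocyte, microglial and endothelial lists overlapped between groups, and none of the 26 genes in these lists passed the test. Of 5 endothelial genes 3 were higher and 2 lower, from *Cldn5*, a tight junction gene that was lower without overlap (-0.57, with -0.51 in row 1 and -0.62 in row 2), to *Slco1a4*, a transporter (0.36). Of 4 microglial genes 3 were higher and 1 lower, from *Cx3cr1* (-0.22) to *P2ry12* (0.22), both with overlapping groups. The other *Cx3cr1* probe differed by -0.03. Choroid plexus genes varied widely between mice, with list means of 3.23 to 5.03 in control mice and 2.68 to 6.04 in BaP-exposed mice, and 8 of 8 were higher with a median of 0.76. Groups overlapped for all 8, none passed the test, and BaP-exposed mouse 1 had the lowest value of all mice for each. The part of these cells in the family's values was not tested.

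**Figure D3:**
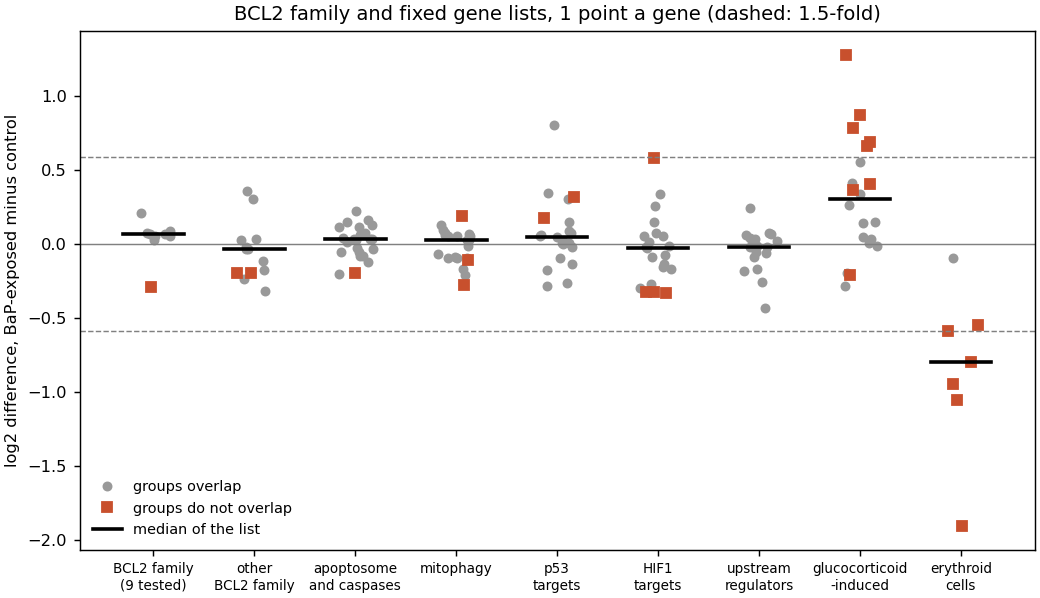
Log2 difference, BaP-exposed minus control (y axis), of every tested gene in the BCL2 family and in 8 gene lists, 1 point a gene by its brightest probe, with the median of each list (black bar) and red squares where the groups did not overlap. The median of the BCL2 family is 0.06, the glucocorticoid-induced list lies higher at 0.30 and the erythroid list lower at -0.80.

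The rest of the BCL2 family was measured through 13 tested genes of a list of 19. None passed the test, 4 were higher and 9 lower, and the median difference was -0.04. *Bcl2l2*, which encodes the neuronal survival protein BCL-W, read 2.14, 2.14, 2.15 and 2.08 in control mice and 1.95, 1.83, 1.88 and 2.06 in BaP-exposed mice. Every exposed mouse lay below every control mouse (difference -0.20, adjusted p = 0.538 from limma), and it was -0.25 in row 1 and -0.15 in row 2. *Bcl2l13*, a mitophagy receptor of the family, was also lower without overlap (-0.19, with -0.10 in row 1 and -0.29 in row 2). These were 2 of the 13 genes, where groups did not overlap for 5.29% of all tested genes. *Bmf*, a BH3-only gene, was higher with overlapping groups (0.35, adjusted p = 0.498 from limma). *Bcl2a1a*, *Bcl2a1b*, *Bcl2l10*, *Bik*, *Bcl2l14* and *Bnipl* were not tested.

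Downstream of the family, the apoptosome and caspase list gave 14 higher and 9 lower genes of 23, a median of 0.03 and no call. *Apaf1*, the scaffold of the apoptosome that cytochrome c assembles, read -0.47, -0.22, -0.21 and -0.42 in control mice and -0.54, -0.54, -0.56 and -0.48 in BaP-exposed mice, lower without overlap (-0.20, adjusted p = 0.557 from limma), with -0.19 in row 1 and -0.21 in row 2. It was the only one of the 23 whose groups did not overlap, where they did not for 5.29% of all tested genes. So small a count cannot be read as different from that share. The initiator *Casp9* differed by -0.03.

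Of 21 tested mitophagy genes, which work with BNIP3 and NIX, 11 were higher and 10 lower, with a median of 0.02 and no call. Groups did not overlap for 3 of them, where they did not for 5.29% of all tested genes. *Usp30*, a deubiquitinase that opposes mitophagy, was higher (0.19), and *Ulk1*, the kinase that starts autophagy, and *Atg5*, which conjugates its membrane proteins, were lower (-0.28 and -0.11). In rows 1 and 2 *Usp30* was 0.17 and 0.20, *Ulk1* -0.41 and -0.14, and *Atg5* -0.14 and -0.08. *Pink1*, a kinase of damaged mitochondria, differed by -0.09.

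The known regulators of the members gave mixed readings. Of 21 tested p53 targets other than the 10 genes, with *Pmaip1* (0.30) counted here and in the rest of the family, 14 were higher and 7 lower, with a median of 0.04 and no call, and *Trp53inp1* (0.32) and *Ccng1* (0.18) were higher without overlap. In rows 1 and 2 *Trp53inp1* was 0.20 and 0.43, and *Ccng1* 0.17 and 0.18. The other *Trp53inp1* probe differed by 0.15. These were 2 of the 21 genes, where groups did not overlap for 5.29% of all tested genes. *Cdkn1a*, a cell cycle inhibitor, was -0.28 with overlapping groups.

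HIF1 targets other than the 10 genes were 8 higher and 13 lower of 21 tested, with a median of -0.03 and no call. *Slc2a1*, the glucose transporter of the blood-brain barrier, read -1.62, -1.93, -1.36 and -1.95 in control mice and -1.19, -1.14, -0.94 and -1.27 in BaP-exposed mice, higher without overlap (0.58, adjusted p = 0.433 from limma), with 0.61 in row 1 and 0.55 in row 2. *Vegfa*, the vascular growth factor (-0.33), *P4ha2*, a collagen hydroxylase (-0.32), and *Car9*, a carbonic anhydrase (-0.34), were lower without overlap, at -0.45 to -0.35 in row 1 and -0.32 to -0.20 in row 2. The other *Vegfa* probe differed by -0.13. Groups did not overlap for 4 of the 21 genes, against 5.29% of all tested genes. The brightest *Bnip3* probe, of a HIF1 target in the family, stood at 0.06.

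The list of upstream regulators held 18 tested genes, 7 higher and 11 lower, with a median of -0.02 and no call, and the groups overlapped for all 18. *Jun*, a transcription factor that drives neuronal *Bcl2l11*, had the lowest unadjusted p of the list, at a difference of -0.44 (adjusted p = 0.498 from limma). *Trp53* differed by 0.02, *Ahr* by -0.06 and *Hif1a* by 0.24. In the list of 20 genes induced by glucocorticoids, hormones that act on BCL2 family genes in other tissues, 16 were higher and 4 lower, with a median of 0.30 and no call. Groups did not overlap for 8 of them, against 5.29% of all tested genes. The list was chosen with earlier results of these data known, so its count and median are descriptions and not independent support. *Sgk1* (1.27), *Plin4* (0.87), *Nfkbia* (0.78), *Hif3a* (0.69), *Mt2* (0.66), *Klf9* (0.40) and *Per1* (0.37) were higher and *Lcn2* (-0.21) lower. The 7 were 0.31 to 1.59 in row 1 and 0.39 to 0.96 in row 2, and *Lcn2* was -0.20 and -0.23.

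**Figure D4:**
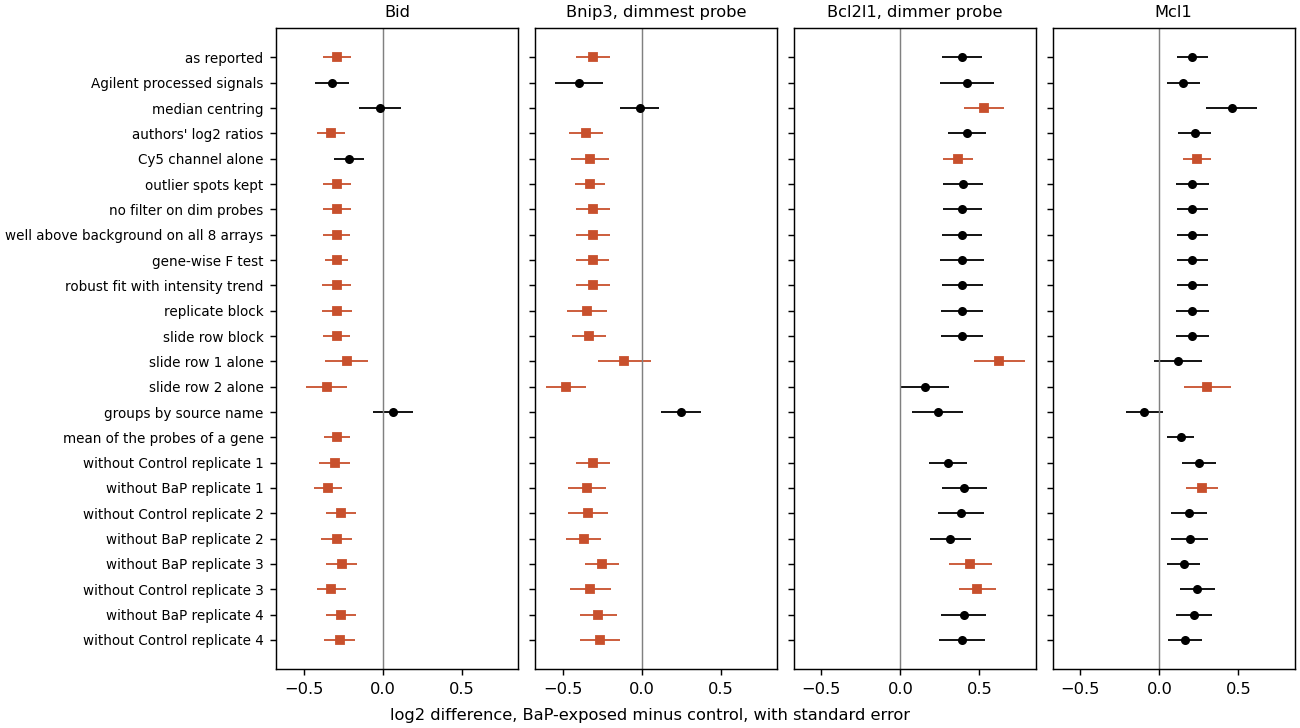
Log2 difference, BaP-exposed minus control (x axis), with its standard error, of *Bid*, the dimmest *Bnip3* probe, the dimmer *Bcl2l1* probe and *Mcl1* under each way of processing or grouping the arrays (rows); red squares mark groups that did not overlap, and single probes have no value where the probes of a gene are averaged. *Bid* moves from -0.35 in slide row 2 alone to 0.06 with the groups of the source names.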

How the data were processed

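Scanner files of 8 two-color arrays and a table of log2 ratios were used. The authors deposited, from Agilent Feature Extraction 11.0.1.1 per the labels, the median intensity of each spot in both channels, local background, flags and the scanner's own log10 ratio. The log2 ratios the authors deposited are described as LOWESS-normalized. Set against log2 ratios of the spot medians without background correction, the deposited ratios had a slope of 0.840 to 0.965. Their medians were -0.046 to -0.034 and their direction was Cy5 over Cy3. Their background correction is not given in the sources used here.

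Spot medians were background-corrected with normexp (offset 50, limma 3.58.1, R 4.3.3). Control spots were dropped, outlier spots set to missing, ratios normalized by loess within arrays and spots of a probe averaged. A probe entered the test if its Cy5 signal stood well above background on 4 or more of the 8 arrays. Groups were compared with lmFit and eBayes, with Benjamini-Hochberg adjustment over all 32598. The study's methods name an analysis of variance for microarrays, and a gene-wise F test stands in for it among the alternatives. Exact permutation tests ran over every assignment of the arrays with a value and were 2-sided. Each array is 1 mouse.

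Of 28685 probes with a RefSeq accession, 27235 (94.9%) were named through a table of GRCm38.p6, used for names and promoters. The brightest tested probe stood for a gene. Named genes are the 10 members and, of each pathway list, those whose groups did not overlap, or else the gene with the lowest p. *Bmf*, *Casp9*, *Pink1*, *Cdkn1a*, *Trp53*, *Ahr*, *Hif1a*, *Pmaip1* and the cell type markers were named after their values were seen. Members and lists were chosen with earlier results of these data known. The fit was tested on simulated data. Alternatives covered background, normalization, filters, channel, blocks, test, probe choice, the label conflict and leaving out each mouse. Some genes of the lists are not reported here by name. The number of arrays limits precision.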

Additional observations from a re-analysis of the deposited data

How the results depend on the processing

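No BCL2 family gene passed the test under any of the alternatives run. Of 251 recomputed log2 differences of members, 229 kept their sign and 22 reversed, all with an adjusted p of 0.218 or more. A change of filter or test, or a block where no value is missing, cannot move a difference. Part of the 229 was therefore fixed in advance. The number of probes called on the whole array, 3 here, was 0 with Agilent's processed signals, the gene-wise F test, slide row 1 alone, slide row 2 alone or the source names, 6 with the Cy5 channel alone and 5 with no filter on dim probes. Leaving out each mouse gave 1 to 3, with 1 without control mouse 1, 3 or 4 or BaP-exposed mouse 2. The number of members whose groups did not overlap, 1 here, was 0 with processed signals or source names, 2 with median centring, slide row 1 alone or the mean of a gene's probes, 3 with slide row 2 alone, and 1 to 2 with a mouse left out. It was 2 without BaP-exposed mouse 1 or 4, where *Mcl1* or *Bnip3* joined *Bid*. With Cy5 alone it was 1, *Mcl1* in place of *Bid*, with median centring *Bak1* and *Bcl2*, and by the mean of a gene's probes *Bid* and *Bcl2l1* (0.24). With 2 mice against 2, 12668 probes of the whole array did not overlap in row 1 and 12110 in row 2, against 1650 over 4 against 4. That number was 1638 with processed signals, 890 with the source names, 3108 with median centring, 3268 without BaP-exposed mouse 1 and 3530 without BaP-exposed mouse 4, and 792 of 15088 genes by the mean of their probes. With median centring 2 intervals lay within 1.5-fold and with row 2 alone 7, of 9, a count added after the data were seen.

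With processed signals *Bax* was -0.0099, *Bbc3* -0.020 and *Bcl2* -0.012. In row 1 alone *Bax* was -0.065, *Bbc3* -0.084 and *Bnip3l* -0.032, and in row 2 alone *Bcl2* was -0.12. With the source names *Bax* was -0.12, *Bbc3* -0.15, *Bid* 0.064, the dimmest *Bnip3* probe 0.25, *Bnip3l* -0.084 and *Mcl1* -0.094. *Bbc3* was -0.0029 with Cy5 alone, *Bcl2* -0.0035 with the authors' log2 ratios and *Bnip3* -0.083 by the mean of its probes. Leaving out each mouse gave -0.0036 to 0.14 for *Bak1*, lowest without BaP-exposed mouse 2, -0.054 to 0.10 for *Bax*, lowest without control mouse 4, -0.027 to 0.16 for *Bbc3*, lowest without BaP-exposed mouse 2, and -0.062 to 0.077 for *Bcl2*, lowest without control mouse 2. The others kept their sign, with *Bnip3l* 0.0060 without BaP-exposed mouse 3 and 0.12 without control mouse 1, *Bcl2l1* 0.045 without control mouse 2 and 0.14 without control mouse 1, and *Bnip3* 0.039 without BaP-exposed mouse 2. The cause was not tested.

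Replicate numbers did not pair the mice, since deviations of same-numbered mice correlated at -0.35 to 0.03 and 0 mice correlated best with their own number. With the replicate block *Bid* was -0.29 (adjusted p = 0.664 from limma), 3 probes were called on the whole array and 0 members. Spot means were planned as an alternative and not run, because the files used here hold medians.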
